A study of Drosophila melanogaster with 4 samples.

Results

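The cytosolic ribosomal protein genes were examined in testis tumors of Drosophila melanogaster, as the 92 of 17558 features in the count table whose symbols begin with RpL, RpS or RpLP followed by a digit. They comprised 48 genes of the large subunit, 3 of the ribosomal stalk, 38 of the small subunit and 3 genes, RpL7-like, RpL24-like and RpLP0-like, whose names derive from a ribosomal protein without being a copy of it (their yeast relatives act in ribosome assembly). The small subunit genes sta and Rack1 carry other symbols and were not counted as members. Tumors had been induced with Upd, a secreted ligand of the JAK-STAT pathway, under the nanos promoter, which is active in the germline (Nanos-Upd, 2 libraries), or the traffic jam promoter, which is active in somatic cyst cells (TrafficJam-Upd, 2 libraries). The Nanos-Upd flies carried y[1], w[1118], hs70FLP, a GAL4::VP16 driver with nanos regulatory sequence and UAS-Upd, and the TrafficJam-Upd flies carried w[1118], traffic jam-GAL4 and UAS-Upd. Both had 1 copy of a UAS reporter that switches from H3-GFP to H3-mKO. Flies were kept at 25 °C, and about 18 to 20 pairs of testes were dissociated per genotype, so a library pools animals. Because the tumor types differ in the driver, in y[1] and hs70FLP and in the fly line, the promoter and the line cannot be told apart.

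A ribosome contains 1 copy of most ribosomal proteins, and their genes are therefore transcribed at similar, high levels in growing cells. Several Drosophila ribosomal proteins are encoded by 2 genes, and for some of them the second gene is known for expression in the germline. In the testis, germline stem cells and somatic cyst stem cells are growing, dividing cells, whereas meiotic and later germ cells turn to a different transcription program.

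The authors' labels divide the 20618 cells into 5 classes: GSC-like (germline stem cell-like), CySC-like (cyst stem cell-like), spermatocyte, somatic and muscle. Transcripts were counted as UMIs (unique molecular identifiers, 1 per captured molecule), with 13190124 to 33499923 UMIs per library and 233141 to 21386875 UMIs and 60 to 5568 cells per class and library. The markers fitted the names of the GSC-like, CySC-like and muscle classes, with 2529 to 3698 CPM (counts per 1e6 UMIs) of 14 early germline markers in GSC-like cells, 3419.6 to 5395 CPM of 11 cyst lineage markers in CySC-like cells and 22308 to 40373 CPM of 12 muscle markers in muscle cells. The somatic class held 1628 to 2688 CPM of the cyst lineage markers, 476 to 974 CPM of 3 terminal epithelium and seminal vesicle markers and 0 to 296 CPM of 5 hemocyte markers. Muscle cells also held 1295 to 2662 CPM of the cyst lineage markers. The spermatocyte class held 14685 to 36304 CPM of 10 spermatid markers against 207 to 308 CPM of 9 spermatocyte markers, so the name is used here as the authors' label only. Mixed cells, with UMIs of 2 or more germline and 2 or more cyst markers, made up 34.9% of all cells, and 35 cell barcodes occurred in more than 1 library. The authors' table also gives a ribosomal percent per cell, which equalled the share of the 92 genes in 20618 of 20618 cells (within 1e-06 percentage points) and was cut off at 40%, so cells above that share are not in the data.

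The share of UMIs that fell on the 92 genes was highest in the stem cell-like classes and lowest in the spermatocyte class. In GSC-like cells the 92 genes took 31.4% and 29.5% of UMIs in Nanos-Upd replicates 1 and 2 and 33.3% and 36.0% in TrafficJam-Upd replicates 1 and 2. In CySC-like cells the corresponding shares were 28.9%, 27.6%, 31.2% and 32.7%. Every library had a higher share in GSC-like than in CySC-like cells, by 2.44 ± 0.592 percentage points (SD, n = 4 libraries, two-sided exact sign-flip permutation test p = 0.125, the smallest p that 4 libraries allow). The spermatocyte class held 13.4%, 16.5%, 14.3% and 20.4%, which differed from GSC-like cells by -16.4 ± 2.69 points (SD, 4 of 4 libraries, exact p = 0.125). In the somatic class the shares were 25.7%, 26.3%, 24.2% and 26.8%. The muscle class held 22.7%, 21.6%, 26% and 30.7%, the widest spread among the somatic classes. Both of these classes lay below CySC-like cells in 4 of 4 libraries, with mean differences of -4.36 ± 2.63 points for the somatic and -4.88 ± 1.91 points for the muscle class (SD, exact p = 0.125 for each).

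The 40% limit bears unequally on these shares. In TrafficJam-Upd replicate 2, 67.4% of GSC-like cells lay at or above 35%, against 39.7% in TrafficJam-Upd replicate 1, 27.5% in Nanos-Upd replicate 1 and 12.7% in Nanos-Upd replicate 2. In CySC-like cells 11.4% to 36.2% lay at or above 35%, and in the spermatocyte class 0.943% to 15.4%. The shares of the stem cell-like classes are thus truncated values, and how large the differences were before filtering was not tested.

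**Figure D1:**
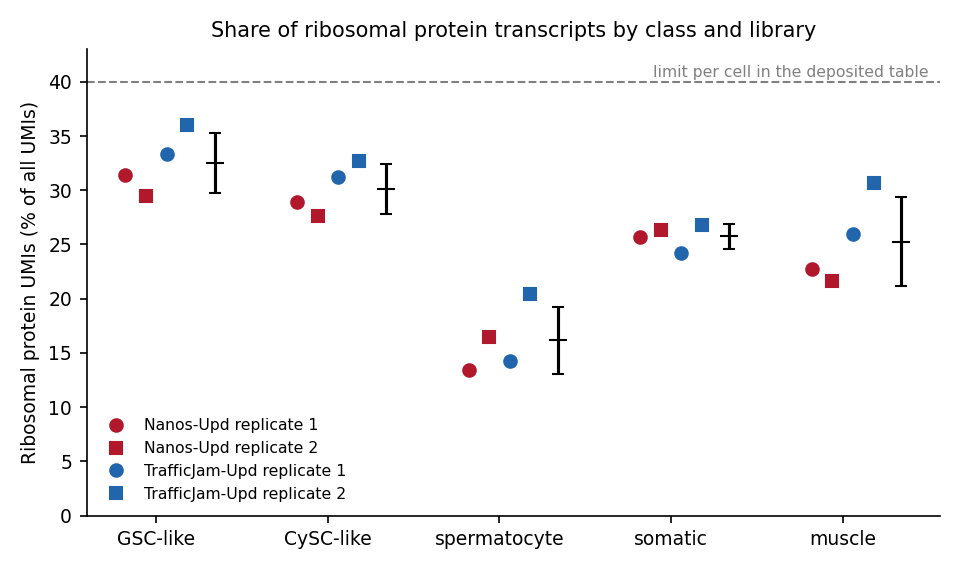
Share of UMIs on the 92 ribosomal protein genes (y axis, % of all UMIs) by class (x axis) for each of the 4 libraries, with the mean ± SD over libraries as a black bar and the 40% limit per cell as a dashed line. The spermatocyte class lies at 13.4% to 20.4% and GSC-like cells at 29.5% to 36.0%, with CySC-like cells between 27.6% and 32.7%.

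The balance between the subunits hardly varied. Small subunit genes supplied 36.4% to 38.3% of the UMIs on large subunit, stalk and small subunit genes across all 20 combinations of class and library. Single genes differed far more. UMIs are counted at the 3' end and not scaled to length, so levels in CPM can be set beside each other only roughly. RpL41, which encodes the shortest ribosomal protein, had the highest mean level over the 5 classes (15288 CPM), followed by RpL39 (5975 CPM), RpL36A (5473 CPM), RpS27 (5050.4 CPM) and RpL19 (5019.7 CPM). The lowest levels were those of RpL7-like (0.613 CPM), RpS28a (10.0 CPM), RpL10Aa (39.8 CPM), RpS28-like (42.4 CPM) and RpS15Ab (85.2 CPM), all of them additional copies or relatives of an abundant gene. RpL7-like, with 63 UMIs in the whole table, overlaps CG34164 on the same strand and was never tested.

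Paralogous genes were found for 10 ribosomal proteins, RpS28 having 2 additional copies, which gave 11 pairs of a main and a second copy. The suffix does not mark the second copy: for RpS10, RpS28, RpL10A and RpL34 the copy ending in b was the abundant one, and for RpL22 the -like copy outnumbered RpL22 over all cells (46165 against 17003 UMIs) and is called second by its symbol only. Of the 10 main copies, 8 lie on the X chromosome, and 8 of the 9 second copies that belong to them lie on an autosome. Positions are those of the matched genes in Ensembl release 115 (BDGP6.54). RpL37a and RpL37b appear in that annotation as RpL37-1 and RpL37-2, and RpL37A is a different gene. The question put to each pair was which part of the pair's transcripts came from the second copy.

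RpL22-like, RpL37b, RpS19b and RpS10a made up a larger part of their pairs in GSC-like than in CySC-like cells in each of the 4 libraries. RpL22-like (chromosome 2R, 23246610 to 23247893, minus strand), a relative of the large subunit gene RpL22 (chromosome X, 762560 to 765130, minus strand), supplied 90.5% and 90.8% of the pair's UMIs in GSC-like cells of Nanos-Upd replicates 1 and 2 and 91.7% and 89.8% in TrafficJam-Upd replicates 1 and 2. In CySC-like cells it supplied 24.0%, 25.8%, 15.7% and 22.4%. The difference was 68.7 ± 4.91 percentage points (SD, n = 4, exact sign-flip permutation p = 0.125, adjusted p = 0.172 over the 11 pairs). Main and second copy moved in opposite directions in this pair. GSC-like cells had 726, 1079, 829.8 and 714 CPM of RpL22-like where CySC-like cells had 104, 152, 76.2 and 118 CPM, a 6.06-fold higher level (log2 2.60 ± 0.13 SE, edgeR adjusted p = 3.26e-07). For RpL22 the GSC-like levels were 76.6, 109.6, 75.3 and 80.8 CPM and the CySC-like levels 329.9, 437, 408 and 409.5 CPM, a 5.78-fold lower level (log2 -2.53 ± 0.10 SE, edgeR adjusted p = 6.36e-09). The ranges of the classes did not overlap for either gene. Of GSC-like cells, 27.9% to 33.2% had a UMI of RpL22 and 87.2% to 93.4% had one of RpL22-like. Cells with both made up 24.7% to 31.4%, and the product of the single shares was 24.8% to 31.0%.

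The parts were smaller in 3 further pairs. RpL37b, a second gene for the large subunit protein RpL37, made up 29.3% ± 3.47 of its pair in the GSC-like and 5.42% ± 1.25 in the CySC-like class (SD, n = 4). For RpS19b, a second gene for the small subunit protein RpS19, the means were 26.5% ± 1.66 and 6.67% ± 1.12. RpS10a made up 20.4% ± 1.41 and 3.42% ± 0.887. Their levels rose by log2 2.05 ± 0.13 (RpL37b), 1.97 ± 0.09 (RpS19b) and 2.28 ± 0.12 (RpS10a) in GSC-like over CySC-like cells. The largest edgeR adjusted p among these 3 genes was 2.11e-06. Their main copies moved the other way: RpL37a (log2 -0.82), RpS10b (-0.61) and RpS19a (-0.38, edgeR adjusted p = 2.27e-04, the largest of the 3). With total UMIs as the only scaling RpL37a and RpS10b were still lower and RpS19a was not called (-0.06).

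RpL34a differed in kind from these pairs: both copies lie on chromosome 3R and neither is rare in the soma. It supplied 27.6%, 28%, 27.2% and 26.2% of the pair in GSC-like cells and 18.2% to 19.6% in CySC-like cells, a difference of 8.59 ± 0.562 points. Its level rose by log2 0.36 ± 0.07 SE (edgeR adjusted p = 5.50e-04). RpL34b was lower (log2 -0.34, edgeR adjusted p = 4.47e-04), but not called with total UMIs as the only scaling (-0.03). In RpS15Ab the difference was 1.16 ± 1.20 points and was not positive in every library (3 of 4, exact p = 0.250). RpS14b supplied 16.1% to 39.9% of its pair in GSC-like and 13.6% to 38.9% in CySC-like cells, ranges set by the tumor types, and was higher in GSC-like cells in 4 of 4 libraries, by 2.56 ± 1.13 points. RpS28a, RpS28-like and RpL10Aa supplied at most 0.266% of their pairs in either class.

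**Figure D2:**
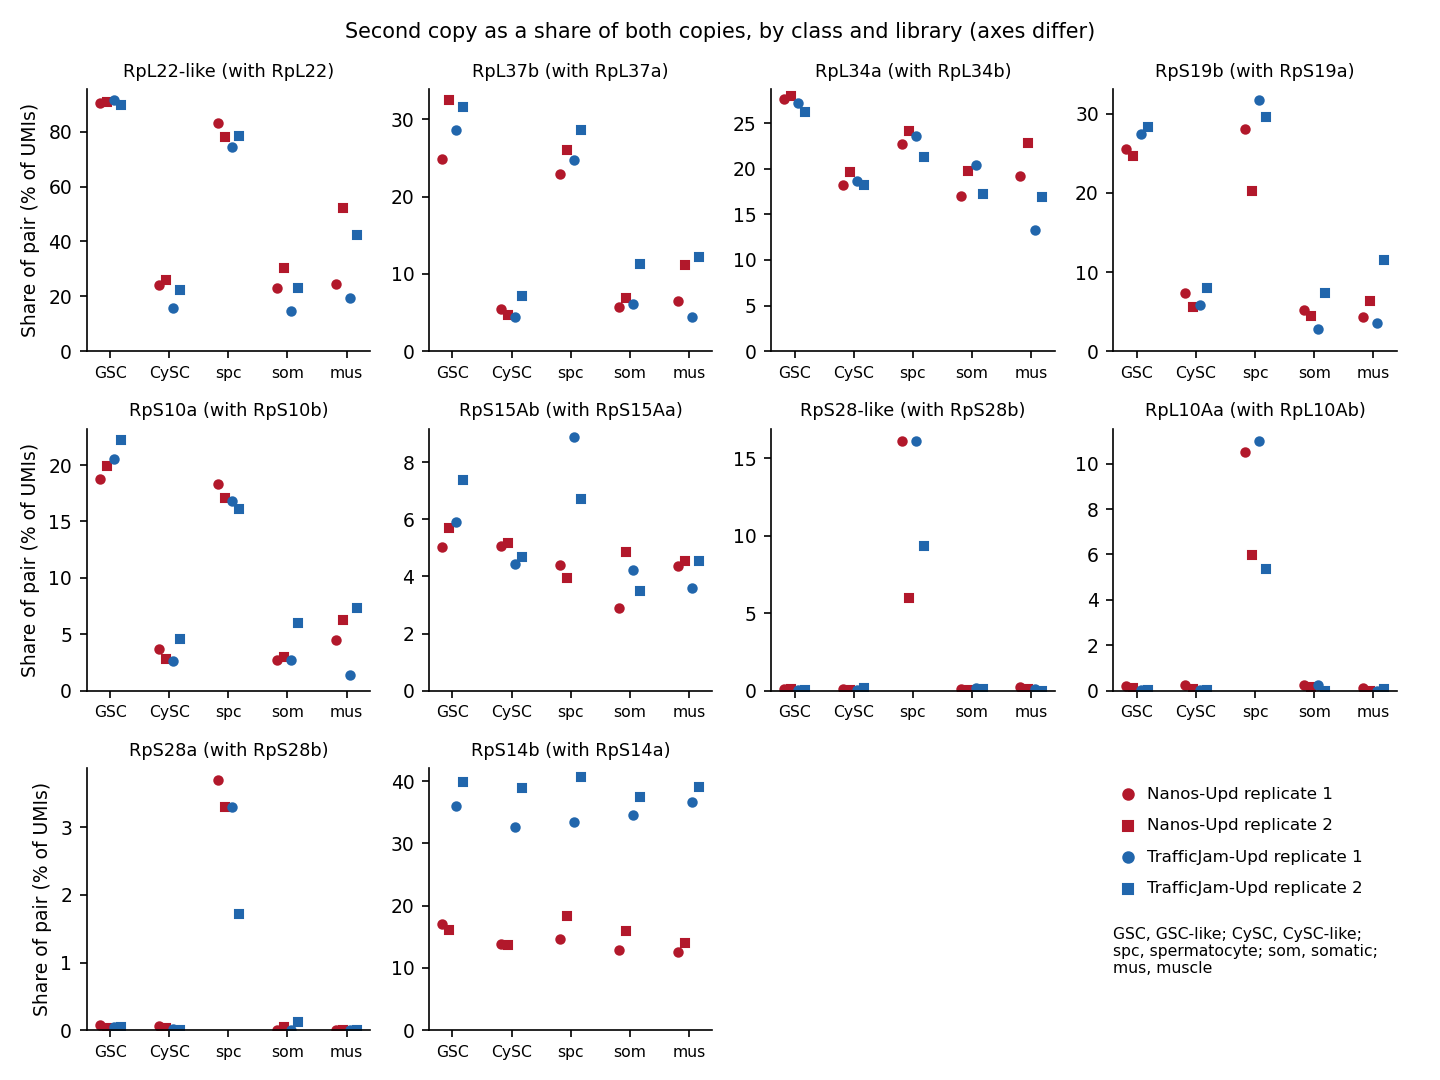
UMIs of the second copy as a percent of the UMIs of both copies (y axis, scaled separately in each panel) by class (x axis), 1 point per library. RpL22-like, RpL37b, RpS19b and RpS10a are high in the GSC-like and spermatocyte classes, RpS28-like, RpL10Aa and RpS28a in the spermatocyte class, and RpS14b separates the tumor types in every class.

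In the somatic classes the germline-biased copies stood at a small part of their level in GSC-like cells, as did germline markers. In CySC-like cells the mean level as a percent of that in GSC-like cells was 16.8% for RpS10a, 20.6% for RpS19b, 13.5% for RpL22-like and 19.7% for RpL37b. The 14 early germline markers together stood at 16.7% (12% to 20.1% over libraries), with vas at 13.5% and nos at 10.2%. In the somatic class the 4 copies stood at 12.4% to 22.3% and the markers at 13.7% (5.01% to 18.4% over libraries). The highest was RpL37b (18.4% to 27.3% over libraries), and vas and nos stood at 10.9% and 8.07%. In the muscle class the 4 copies stood at 20.6% to 24.4% and the markers at 17.2%. RpL34a, at 62.5%, 51.6% and 50.7% in the same 3 classes, lay far above the markers. In muscle all 4 copies lay above the markers' mean. The part of free RNA and of germ cells in mixed droplets in these levels was not tested, and no expression in the soma is read from them.

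Across all members, GSC-like cells had lower levels than CySC-like cells for most genes once counts were scaled by the trimmed mean (TMM), a scaling that centres the bulk of genes. Of 90 members tested, 8 were higher and 51 lower at an edgeR adjusted p under 0.05, where 72.6% of all 8909 genes tested were called, 35.1% higher and 37.4% lower. The median log2 fold change of the members was -0.21, beside -0.06 for all genes tested. This direction depends on the scaling: with total UMIs as the only scaling, which moves the median of all genes from -0.06 to 0.26, 46 members were higher and 18 lower and their median was 0.10. Over all genes the scaling moved the split from 3128 higher and 3336 lower to 4291 and 2213. The members' median minus that of all genes was -0.15 with TMM and -0.16 with total UMIs. Under both scalings the same 8 members were called higher and the same 18 lower. The higher members included RpL22-like, RpS10a, RpL37b, RpS19b, RpL34a, RpLP0-like and RpL36A. RpLP0-like had 196 to 268 CPM in the GSC-like class, above the 105 to 125 CPM of the CySC-like class (log2 0.66 ± 0.09 SE, adjusted p = 4.50e-05). RpL36A, a large subunit gene without a paralog, rose by 0.15 ± 0.06 (SE, adjusted p = 0.0392), a call that was lost without TrafficJam-Upd replicate 1 (adjusted p = 0.146) or replicate 2 (0.0976). Without the library as a block, 6 members were called higher and 15 lower.

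The largest falls after RpL22 were those of 4 large subunit genes. RpL21 had 2639, 2659, 2427 and 2941 CPM in the GSC-like class against 3923, 3719, 4185 and 4218 CPM in the CySC-like class (log2 -0.91 ± 0.07 SE, adjusted p = 1.21e-06). RpL4 had 1040.4, 1433, 1086 and 1186 CPM against 1591, 1764, 1809 and 1815 CPM (log2 -0.88 ± 0.09 SE, adjusted p = 6.83e-06). The classes did not overlap for either gene in these unscaled levels. RpL37a fell by 0.82 and RpL38 by 0.68 on the log2 scale. All 5 genes, RpL22 included, were also lower with total UMIs as the only scaling. Among main copies and single genes, 12 of 13 on the X chromosome were lower (median log2 fold change -0.38), as were 39 of 65 on autosomes (median -0.19, with 1 higher), where 46.7% of all X-linked and 35.4% of all genes of chromosomes 2 and 3 tested were called lower. These are counts with TMM, and with total UMIs 18 members in all were lower instead of 51. The medians over all genes tested were -0.30 for the X chromosome and -0.01 for chromosomes 2 and 3, so all genes differed between X and autosomes in the same direction. The 3 stalk genes RpLP0, RpLP1 and RpLP2 were not called (log2 -0.17 to -0.09).

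**Figure D3:**
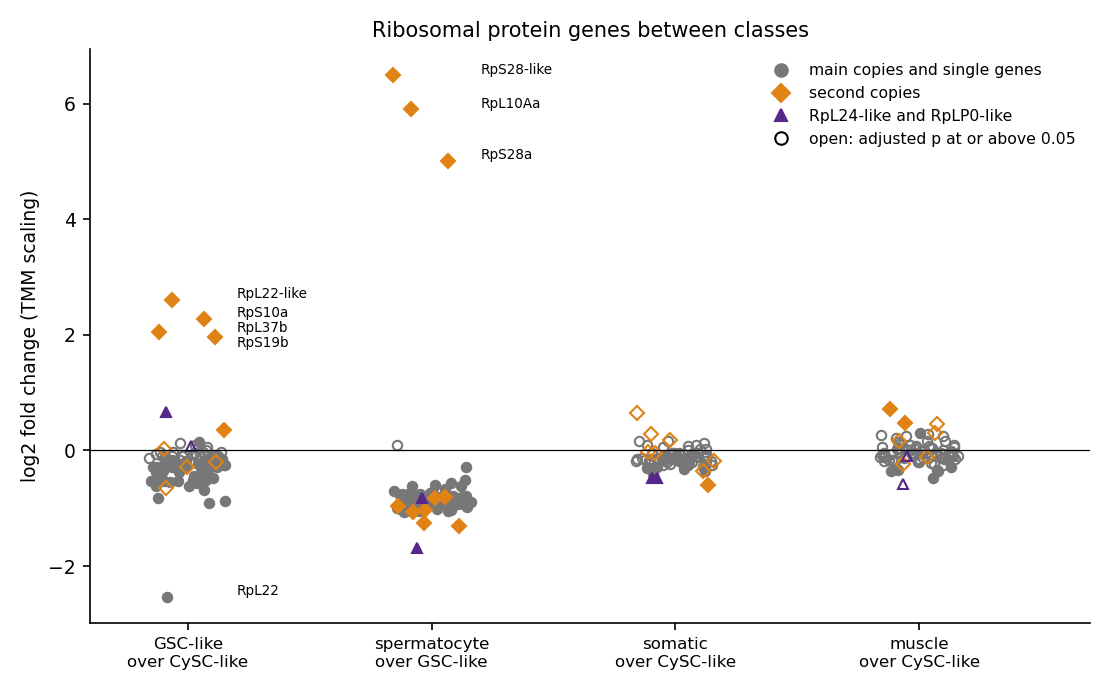
TMM-scaled log2 fold changes (y axis) of the reported ribosomal protein genes in 4 comparisons between classes (x axis), with second copies as diamonds, the assembly factor relatives RpL24-like and RpLP0-like as triangles and uncalled genes open. RpL22-like (2.60) and RpL22 (-2.53) mark the ends of the GSC-like over CySC-like comparison, and RpS28-like (6.49), RpL10Aa (5.90) and RpS28a (5.01) stand apart from the other members in the spermatocyte class.

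In the spermatocyte class nearly all members fell while 3 second copies rose. Of 91 members tested against GSC-like cells, 87 were lower and 3 higher, where 65.8% of all 9079 genes tested were called, 32.6% lower and 33.2% higher. The median log2 fold change was -0.86 (interquartile range -0.95 to -0.79), beside -0.22 for all genes. With total UMIs as the only scaling the counts were the same and the medians were -1.03 and -0.39. RpL22 was the 1 member without a call (log2 0.10 ± 0.22 SE, adjusted p = 0.720), with 75.3 to 109.6 CPM in the GSC-like and 50.7 to 107 CPM in the spermatocyte class. The smallest fall was that of RpS29 (log2 -0.29 ± 0.10 SE, adjusted p = 0.0332), a small subunit gene, followed by RpL38 (-0.51). Among the largest falls were those of RpLP0-like (-1.69), RpL22-like (-1.30), RpL34a (-1.25) and RpS10a (-1.07), of which the last 3 are second copies.

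RpS28-like (chromosome 2L, 9436804 to 9437227, plus strand), RpL10Aa (chromosome 3R, 15037366 to 15038149, plus strand) and RpS28a (chromosome 3R, 30022345 to 30022648, minus strand) were the 3 members that rose. RpS28-like had 243, 112, 259 and 187 CPM in the spermatocyte class against 4.48, 2.99, 0.536 and 1.56 CPM in the GSC-like class (log2 6.49 ± 0.53 SE, edgeR adjusted p = 4.68e-06). RpL10Aa had 199.8, 136, 251 and 149 CPM against 7.67, 4.16, 1.61 and 1.30 CPM (log2 5.90 ± 0.48 SE, adjusted p = 4.72e-06). For RpS28a the levels were 48.6, 60.0, 46.1 and 31.7 CPM against 2.58, 1.08, 1.61 and 1.30 CPM (log2 5.01 ± 0.33 SE, adjusted p = 1.42e-06). The class ranges did not overlap for these genes.

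Their parts of their pairs remained small even in the spermatocyte class. RpS28-like supplied 16.1%, 6.0%, 16.1% and 9.32% of the UMIs of RpS28-like and RpS28b, RpL10Aa 10.5%, 5.96%, 11% and 5.37% of those of RpL10Aa and RpL10Ab, and RpS28a 1.71% to 3.69% of those of RpS28a and RpS28b. In every other class and library the part was at most 0.266%. A UMI of RpL10Aa was found in 34.9% to 47.9% of spermatocyte class cells and in 0.557% to 3.61% of GSC-like cells, and at an equal depth of 2200 UMIs per cell in 24.7% to 35.6% and 0.316% to 1.76%. RpS28-like overlaps CG3769 on the same strand, and UMIs of these genes cannot be fully told apart. The spermatid markers (303 to 1127 CPM in the GSC-like class) were high in the same class, and their part in the result was not tested.

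The copies that distinguished GSC-like from CySC-like cells made up larger parts of their pairs in the spermatocyte class than in CySC-like cells. RpL22-like supplied 78.5% ± 3.57 there, 12.1 ± 4.10 points less than in GSC-like cells (SD, lower in 4 of 4 libraries). RpL37b supplied 25.5% ± 2.38 and RpS10a 17.1% ± 0.918, each lower than in GSC-like cells in 4 of 4 libraries. The part of RpS19b was 27.4% ± 5.01, higher than in GSC-like cells in 3 of 4 libraries. Early germline markers had 722 to 1571 CPM in the spermatocyte class, against 2529 to 3698 CPM in GSC-like cells. The part of free RNA and of other germ cells in these values was not tested. The 3 genes named for a relation to RpL7, RpL24 and RpLP0 gave no such pattern as a group: RpL24-like stood at 8.26% to 12.5% of the sum with RpL24 in the germline and CySC-like classes, and RpLP0-like at 4.27% ± 1.16 of the sum with RpLP0 in the spermatocyte class against 8.47% ± 1.65 in GSC-like cells.

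The somatic and muscle classes, set against CySC-like cells with TMM, had fewer called members than the comparisons above, and fewer called genes among all genes tested. Of 89 members tested in the somatic class, 9 were lower and 0 higher than in CySC-like cells with edgeR. An unadjusted p under 0.05 was reached by 24 members and by 2743 of all genes. DESeq2 called 1 member lower and 0 higher, and 485 of all genes lower and 1048 higher. With edgeR 24.9% of all 7838 genes tested were called, 10.1% lower and 14.8% higher. The share lower among the members was also 10.1%. The largest falls were those of RpS15Ab (log2 -0.60 ± 0.17 SE, adjusted p = 0.0192), RpLP0-like (-0.48), RpL24-like (-0.47), RpS4 (-0.41) and RpL35A (-0.35), a mixture of both subunits and assembly relatives. Of these, RpS15Ab lost its call without Nanos-Upd replicate 1 (adjusted p = 0.127) or TrafficJam-Upd replicate 2 (0.0657), RpLP0-like without Nanos-Upd replicate 1 (0.112) or TrafficJam-Upd replicate 1 (0.0502), and RpS4 and RpL35A without TrafficJam-Upd replicate 1 (0.0502 and 0.0570) or 2 (0.0666 and 0.105). Without TrafficJam-Upd replicate 1 or replicate 2 the count fell to 2, and with total UMIs as the only scaling it rose to 34.

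In the muscle class 4 members were higher and 7 lower than in CySC-like cells, of 88 tested, where 28.2% of all 7526 genes tested were called, 15.0% higher and 13.2% lower. With total UMIs as the only scaling 0 members were higher and 44 lower, and over all genes the split moved from 1126 higher and 996 lower to 925 and 1533. RpL22-like rose by log2 0.72 ± 0.19 SE (adjusted p = 0.00493), RpL37b by 0.47 and RpS26 by 0.30. The first 2 of these are germline-biased second copies, and early germline markers had 238 to 761 CPM in muscle and 399 to 698 CPM in the CySC-like class. RpL22-like supplied 24.4%, 52.3%, 19.3% and 42.3% of its pair in muscle, so that replicate 2 of each tumor type was the higher one. The levels of the early germline markers were likewise 749 and 761 CPM in those libraries, against 359 and 238 CPM in the other two. Their part in the result was not tested. None of these 3 genes was called with total UMIs as the only scaling, and each lost its call without at least 1 library: RpL22-like without Nanos-Upd replicate 2 (adjusted p = 0.0858), RpL37b without TrafficJam-Upd replicate 2 (0.221), Nanos-Upd replicate 2 (0.237) or Nanos-Upd replicate 1 (0.0538), and RpS26 without Nanos-Upd replicate 1 (0.145) or TrafficJam-Upd replicate 1 (0.0693) or 2 (0.158). RpL10, a large subunit gene, fell by 0.47 on the log2 scale (adjusted p = 6.15e-04). It kept its call in each of the 12 alternatives. RpS2, RpL21, RpL39 and RpS4 fell by 0.36, 0.35, 0.34 and 0.33, calls that were lost when Nanos-Upd replicate 1 was left out. The count of members called was then 3 instead of 11, with 2 of the 3 higher.

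Between the tumor types RpS14b showed the largest difference among members at an average of 50 CPM or more. This gene and RpS14a, which encode the same small subunit protein, are neighbours on the X chromosome (7934898 to 7935792 and 7933742 to 7934677, both on the plus strand). GSC-like cells of the Nanos-Upd libraries had 389 and 340.2 CPM of RpS14b, against 796 and 986 CPM in the TrafficJam-Upd libraries. In CySC-like cells the levels were 260.2 and 260.1 CPM against 686 and 883 CPM. The tumor types did not overlap in either class. RpS14b was lower in the Nanos-Upd tumor, 2.72-fold in GSC-like (log2 -1.45 ± 0.21 SE, edgeR adjusted p = 0.00183) and 3.36-fold in CySC-like cells (log2 -1.75 ± 0.15 SE, edgeR adjusted p = 6.75e-04). It was the only member called in either comparison, of 91 and 90 tested, where 3.12% (2.05% higher and 1.07% lower) and 2.84% (1.57% higher and 1.26% lower) of all genes tested were called. Over all genes the split moved with total UMIs from 194 higher and 101 lower to 341 and 61 in GSC-like and from 137 and 110 to 213 and 44 in CySC-like cells. The call held in every alternative run for these 2 classes, and the log2 values ranged from -1.70 to -1.20 in GSC-like and from -1.99 to -1.52 in CySC-like cells.

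The part of RpS14b in its pair showed the same split in all 5 classes. It was 17.1% and 16.1% against 36% and 39.9% in GSC-like cells, 13.8% and 13.6% against 32.6% and 38.9% in CySC-like cells, and 14.6% and 18.4% against 33.4% and 40.7% in the spermatocyte class, with Nanos-Upd named first. It was 12.8% and 16% against 34.5% and 37.5% in the somatic class and 12.6% and 14% against 36.7% and 39.0% in muscle. The mean differences ran from -24.5 to -20.6 percentage points, and each had an exact permutation p of 0.333, the smallest that 2 against 2 libraries allow. No other pair separated the tumor types in all 5 classes. The edgeR log2 fold changes of RpS14b in the 3 smaller classes were -1.48 (spermatocyte), -1.25 (somatic) and -2.01 (muscle), with adjusted p-values of 0.238, 0.0988 and 0.129. Its difference between tumor types did not pass the test for an interaction between GSC-like and CySC-like cells (adjusted p = 0.833). RpS14a was not called: its log2 fold changes were 0.18 for GSC-like and 0.07 for CySC-like cells (adjusted p = 0.542 and 0.679). The sum of both copies was 2274 and 2118 CPM against 2207 and 2474 CPM in GSC-like cells, which overlap, and 1889 and 1916 CPM against 2105 and 2272 CPM in CySC-like cells, which do not.

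The genotypes differ in markers of the X chromosome, which carries both copies, so tumor type and X chromosome cannot be told apart for RpS14b. How the counting treated reads that match both copies is not given in the sources used here.

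**Figure D4:**
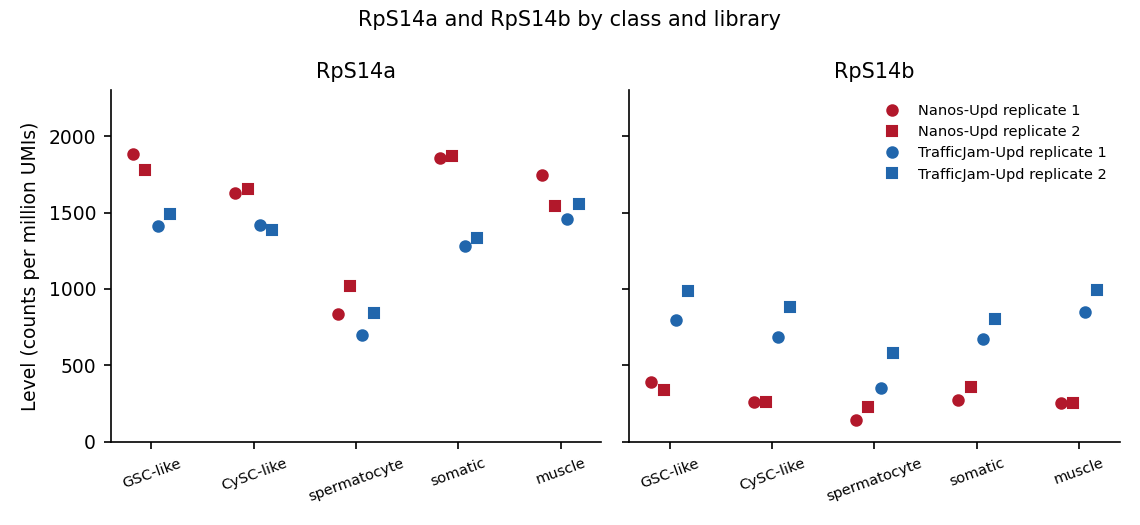
Level of RpS14a (left) and RpS14b (right) in CPM (y axis) by class (x axis), 1 point per library. The Nanos-Upd libraries lie below the TrafficJam-Upd libraries for RpS14b in all 5 classes, for example at 252 and 251 CPM against 846 and 994 CPM in muscle.

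The other members leaned to the same side without passing the test. The members' median log2 fold change of Nanos-Upd over TrafficJam-Upd was -0.33 in GSC-like, -0.34 in CySC-like, -0.36 in spermatocyte and -0.50 in muscle cells, beside medians of all genes of 0.05, 0.02, -0.03 and -0.01. In the somatic class it was 0.02, beside 0.03. The lean was not particular to the cytosolic members. Mitochondrial ribosomal protein genes had medians of -0.41, -0.31, -0.47 and -0.55 in GSC-like, CySC-like, spermatocyte and muscle cells, and -0.16 in the somatic class. The other gene lists compared below had medians from -0.30 to 0.34 in GSC-like cells. With total UMIs as the only scaling the members' medians were -0.18, -0.18, -0.21, -0.34 and 0.05 in GSC-like, CySC-like, spermatocyte, muscle and somatic cells. Of the members tested, 36 of 91 for GSC-like and 70 of 90 for CySC-like cells reached an unadjusted p under 0.05 with edgeR. Over all genes tested these were 2443 of 9466 and 2386 of 8701. In each class 1 member passed the adjustment over all genes. DESeq2 called 4 and 37 members, all of them lower. Of all genes it called 301 higher and 220 lower in GSC-like and 272 and 255 in CySC-like cells. In the spermatocyte, somatic and muscle classes edgeR called 0 members, with 2, 5 and 30 at an unadjusted p under 0.05. Of all genes tested with edgeR 0.669% (0.510% higher and 0.159% lower), 0.184% (0.0817% higher and 0.102% lower) and 0% were called. An unadjusted p under 0.05 was reached by 360 of 6276, 649 of 4897 and 259 of 3361 genes. DESeq2 called 0, 1 and 1 members in these classes. Of all genes it called 9 higher and 3 lower, 23 and 34, and 3 and 4. Leaving out 1 library gave up to 4 members: 4 and 1 in the somatic class without Nanos-Upd replicates 1 and 2, and 4, 1 and 1 in muscle without TrafficJam-Upd replicates 1 and 2 and Nanos-Upd replicate 1. The interaction of class and tumor type gave 0 members with either tool, with 2 at an unadjusted p under 0.05 with edgeR. Of all genes 1.35% were called (0.787% higher and 0.562% lower), and 900 of 9787 reached an unadjusted p under 0.05.

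The share of UMIs on the members leaned the same way. Nanos-Upd minus TrafficJam-Upd gave -4.17 percentage points in GSC-like, -3.78 points in CySC-like and -6.21 points in muscle cells (2 libraries each, exact permutation p = 0.333 and adjusted p = 0.556 over 5 classes for each). Leaving out TrafficJam-Upd replicate 2 moved the value in muscle to -3.87 points. The difference was -2.43 points in the spermatocyte class (exact p = 0.667) and turned to 0.644 without TrafficJam-Upd replicate 2. In the somatic class it was 0.526 points (exact p = 1.00) and turned to -0.759 without TrafficJam-Upd replicate 1. Other values of the libraries ran along with these shares. The median mitochondrial percent of GSC-like cells was 4.87% and 5.73% in the Nanos-Upd and 4.66% and 4.06% in the TrafficJam-Upd libraries, and that of CySC-like cells 5.94% and 6.24% against 5.16% and 5.24%. Cells with markers of both lineages made up 27.3% and 36.4% against 22.8% and 19.8% of GSC-like cells, and 44.4% and 52.7% against 33.5% and 35% of CySC-like cells. Their part in the difference was not tested, except that without these mixed cells the difference was -4.05 points in GSC-like and -3.65 points in CySC-like cells. The number of members called moved with single libraries: in GSC-like cells it was 15 without TrafficJam-Upd replicate 1 and 3 without Nanos-Upd replicate 2, and in CySC-like cells 27 when TrafficJam-Upd replicate 1 was left out, 15 when Nanos-Upd replicate 1 was and 2 when Nanos-Upd replicate 2 was.

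**Figure D5:**
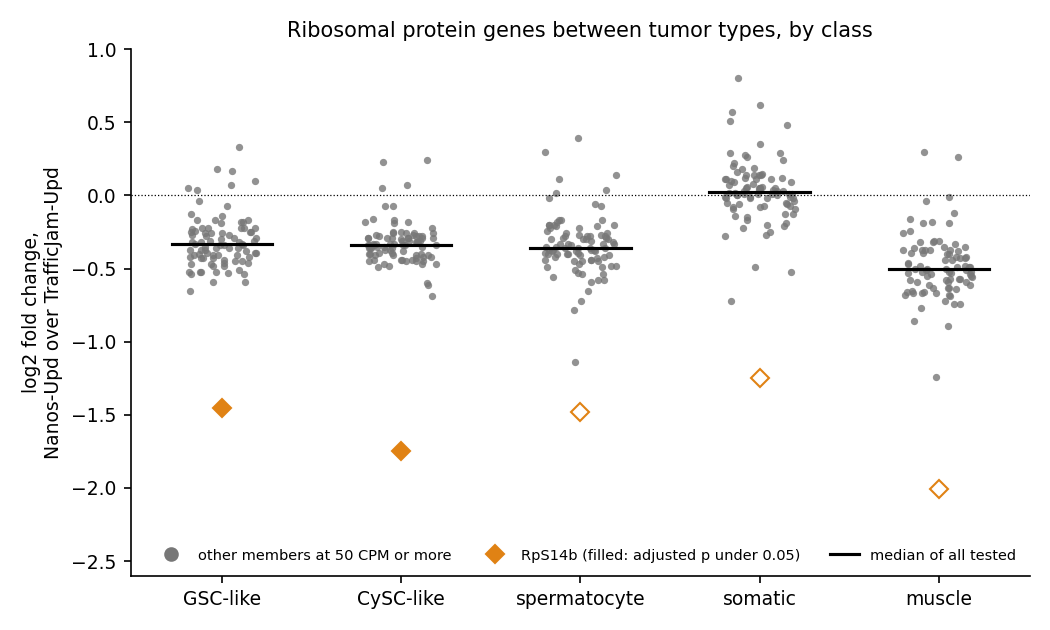
TMM-scaled log2 fold change of Nanos-Upd over TrafficJam-Upd (y axis) by class (x axis) for members at an average of 50 CPM or more, with the median of all members tested as a black line and RpS14b as a diamond, filled where its adjusted p was under 0.05. The medians lie at -0.33, -0.34, -0.36, 0.02 and -0.50 from left to right, and RpS14b lies below all other plotted members in each class.

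Genes that act with the ribosomal proteins were compared as lists. Factors of rRNA processing and RNA polymerases I and III, which make and mature ribosomal RNA, were higher in GSC-like than in CySC-like cells more often than lower under both scalings, whereas the direction of the ribosomal proteins depended on the scaling (8 higher and 51 lower with TMM, 46 and 18 with total UMIs). Of all genes tested with TMM 35.1% were higher and 37.4% lower (median log2 -0.06). Of 37 nucleolar processing genes tested, 27 were higher and 3 lower (median log2 0.36). Among them were the box C/D snoRNP gene nop5 (0.89) and the exosome genes Rrp4 (0.76) and Dis3 (0.69), with Non1 (-0.76) on the other side. Of 19 polymerase I and III genes tested, 15 were higher (median 0.59), for example Polr1C (0.88), a subunit shared by both enzymes, and 1 was lower, Maf1 (-1.28, adjusted p = 2.60e-07), the repressor of polymerase III. With total UMIs as the only scaling these lists had 34 and 17 genes higher and medians of 0.67 and 0.91. Of all 8909 genes 4291 were then higher and 2213 lower (median 0.26). The small subunit genes sta (-0.33) and Rack1 (-0.54) were lower like most members, with 1 of the 2 still lower under total UMIs.

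Translation factors were divided. Of 7 elongation factor genes, eEF1alpha2 (log2 2.03), eEF1delta (0.59) and eEF1beta (0.27) were higher and eEF5 (-0.97), eEF2 (-0.62) and eEF1alpha1 (-0.60) lower in GSC-like cells. The 2 genes for eEF1alpha thus moved in opposite directions, eEF1alpha2 having 1.65 to 4.90 CPM in the CySC-like and 16.1 to 20.8 CPM in the GSC-like class. The ranges of eEF1alpha1, 4632 to 5765 and 3927 to 5062 CPM, overlapped in these unscaled levels. Of 25 initiation factor genes 4 were higher and 10 lower with TMM, where 35.1% of all genes were higher and 37.4% lower. With total UMIs 13 were higher and 3 lower, where 4291 of all 8909 genes were higher and 2213 lower. The direction of this list thus moved with the scaling, as did that of all genes. Among 12 regulators of ribosomal protein genes and growth, 5 were lower in GSC-like cells and 2 higher with TMM. With total UMIs 3 were lower and 5 higher, so this list also moved with the scaling, beside the same shares of all genes. Thor, the 4E-BP translation repressor, fell by 2.80 and Xrp1, a transcription factor induced by loss of ribosomal proteins, fell by 1.80 on the log2 scale, and Tor, the growth kinase, rose by 0.65.

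In the spermatocyte class most genes of each list were called lower, the initiation factors least clearly. With 31 of 37 nucleolar genes, 15 of 19 polymerase I and III genes, 6 of 7 elongation factors, 13 of 25 initiation factors and 9 of 12 regulators lower than in GSC-like cells, the medians were -1.24, -1.18, -0.88, -0.43 and -1.33 (all genes, -0.22, with 32.6% lower). Of the initiation factors, 9 were lower with RLE size factors and 18 with total UMIs. Myc, a growth regulator that acts on ribosome production, fell by 1.85 on the log2 scale (adjusted p = 2.54e-05). The exosome gene Rrp6 (log2 2.37), Ski6 (0.55), eIF5 (1.70) and eEF1alpha2 (0.83) were the genes of these lists that rose. With total UMIs as the only scaling 0 elongation factors and 1 nucleolar gene were higher.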

How the data were processed

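Single-cell libraries were prepared with 10x Genomics 3' chemistry, and Cell Ranger 7.0.0, Seurat 5.0.3 and build dm6 are named in the submitters' processing notes, without parameters. The authors deposited raw UMI counts per gene and cell, and a table with each cell's library, class and ribosomal and mitochondrial percent; how classes were assigned and doublets treated is not given in the sources used here. The deposited percent values were used only as a check and for the limits on cells (2200 to 7499 UMIs). Counts were summed per class and library, and these sums were tested with edgeR 4.0.16 in R 4.3.3 (TMM, filterByExpr, robust quasi-likelihood fit, Benjamini-Hochberg over all genes tested, threshold 0.05), with the library as a block between classes. Nothing in the labels says that replicates came from separate cultures or animals. The p-values between tumor types measure the spread between libraries, and those between classes the spread of the differences within libraries. Either spread may be technical. DESeq2 1.42.0 was an alternative. CPM levels were divided by total UMIs only. Shares were tested with exact permutation tests over libraries in Python 3.11.15 (scipy 1.17.1). The edgeR step was tested on simulated counts.

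The members and gene lists were chosen with earlier results of these data known. Named are the members of a pair (1 pair is counted but not reported here), in each comparison up to 5 rising and 5 falling called members, by size of change, at an average of 50 CPM or more, the 5 highest and 5 lowest members by level, and up to 3 rising and 3 falling called genes per list. RpL36A, RpL22 in the spermatocyte class and the genes with the smallest changes were named after their values were seen. The lists matched 7 of 9 elongation, 25 of 25 initiation, 37 of 40 nucleolar, 20 of 26 polymerase, 12 of 13 regulator and 73 of 73 mitochondrial ribosomal protein entries. Alternatives were other scalings, no filter, each library left out, at least 3000 UMIs per cell, no mixed cells and other blocks. No sequences were used.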

Additional observations from a re-analysis of the deposited data

How the results depend on the processing

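The 40% limit on the ribosomal share, 2 libraries per tumor type and 60 to 249 cells per library in the 3 smaller classes limit what these data resolve. Under the alternatives 88 counts stayed within 1.5 times and 38 did not, and 743 single-gene values kept direction and side of the threshold, while 71 lost the call, 11 gained it and 4 reversed. The cause of these changes was not tested. Total UMIs as the only scaling, chosen after seeing the data, gave 34 called members for somatic over CySC-like (9 with TMM) and 44 for muscle over CySC-like (11 with TMM), and turned RpS14a (0.10), RpS28b (0.04), RpL10Ab (0.02) and RpL7 (0.06) in GSC-like over CySC-like. Without the library block the class comparisons gave 21 (GSC-like over CySC-like, 59 with the block), 4 (somatic) and 1 (muscle). DESeq2 gave 1 (somatic) and 2 (muscle) between classes and 4, 37, 1 and 1 between tumor types in GSC-like, CySC-like, somatic and muscle cells. No filter on low counts gave 44 (somatic) and 22 (muscle) between classes and 5, 54, 1 and 1 between tumor types in the same order. At least 3000 UMIs per cell gave 5 for somatic over CySC-like. Without mixed cells the tumor types gave 2, 2 and 1 in GSC-like, CySC-like and somatic cells, and TMM factors without the members gave 2 in GSC-like cells. With 1 library left out the counts ranged from 2 to 8 (somatic over CySC-like) and 3 to 13 (muscle over CySC-like), and between tumor types from 1 to 15, 1 to 27, 0 to 4 and 0 to 4 in GSC-like, CySC-like, somatic and muscle cells. Between tumor types, the library that remains of the reduced type stands alone in its group and is assumed to vary like the other group. The difference in share between tumor types ranged from -5.50 to 0.644 points (spermatocyte) and -0.759 to 1.81 points (somatic), and that of RpL10Aa in its pair between GSC-like and CySC-like cells ranged from -0.0243 to 0.0124 points. Over the genes compared, same-numbered libraries did not deviate together in GSC-like (r = -0.17) and CySC-like sums (r = -0.06). The 3 smaller classes were not compared in this way. In muscle the part of RpL22-like in its pair was higher in replicate 2 of both tumor types. With 2 libraries per tumor type, whether the numbers pair the libraries cannot be decided. Over all genes, the counts between tumor types in GSC-like cells were 194 higher and 101 lower, against 327 and 313 with TMM factors without the members, and the interaction's 77 and 55 became 97 and 38. The replicate block gave 1, 1, 1, 0 and 1 called members in GSC-like, CySC-like, spermatocyte, somatic and muscle cells. A crossed pairing, added after seeing the data, gave 59 in GSC-like cells, 3 higher and 56 lower. Over all genes the crossed pairing gave 1405 higher and 1079 lower, so the rise was not particular to the members.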

Other observations

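Mitochondrial ribosomal protein genes, which are nuclear genes for the ribosome inside mitochondria, were also compared between the classes. Of 72 tested, 21 were higher and 17 lower in GSC-like than in CySC-like cells (median log2 0.03). Of all genes tested 35.1% were higher and 37.4% lower (median -0.06). With total UMIs as the only scaling 52 were higher and 4 lower (cytosolic members, 46 and 18), and 4291 and 2213 of all 8909 genes. mRpL50 rose most (1.07 ± 0.10 SE, edgeR adjusted p = 2.32e-06) and mRpL30 was among those that fell (-0.76, edgeR adjusted p = 1.39e-05). In the spermatocyte class 56 fell and 1, mRpS17, rose (0.61, edgeR adjusted p = 0.0258), where 32.6% of all genes were lower and 33.2% higher. Total UMIs as the only scaling did not give the call of mRpS17. In the somatic and muscle classes 39 and 28 of 72 were lower than in CySC-like cells and 0 higher (medians -0.58 and -0.57), where 10.1% and 13.2% of all genes were lower. Of the cytosolic members, 9 of 89 and 7 of 88 were lower. With total UMIs as the only scaling the counts were 48 and 48 mitochondrial and 34 and 44 cytosolic genes. Over all genes they were 1035 of 7838 and 1533 of 7526. The difference between the sets was not tested.

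The elongation factor gene eEF1alpha2 had 201 to 583 CPM in the muscle class against 1.65 to 4.90 CPM in the CySC-like class (log2 6.94 ± 0.38 SE, edgeR adjusted p = 5.63e-07). It was also the elongation factor with the largest rise in GSC-like cells.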
